A study of Mus musculus with 24 samples.

Results

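The 10 genes described here encode histone chaperones and chromatin assembly factors, and they were taken by name as the rows Chaf1a, Chaf1b, Asf1a, Asf1b, Hira, Ubn1, Cabin1, Nasp, Daxx and Atrx among 55291 genes. Their read counts come from 12 total RNA-seq libraries of mouse preimplantation embryos, 2 biological replicates for each of 6 groups. Zygotes of 8-week-old B6D2F1 parents had been injected in the male pronucleus with 20 µM antisense oligonucleotides, either a mix of 3 against the endogenous retrovirus MERVL (MERVL-KD) or a scrambled sequence (control). Each library pooled 30 embryos freed of the zona pellucida at the 2-cell, 4-cell or 8-cell stage. The strain label reads BDF2, and embryonic day 1.5 is given for the 2-cell libraries and 2.5 for both later stages, so the 4-cell and 8-cell groups differ by cleavage stage and not by labelled day. All embryos, the controls too, had been injected, so uninjected embryos are not part of any comparison. Because embryos were pooled, the spread between the 2 libraries of a group is that between pools.

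Histone chaperones carry newly made or recycled histones and hand them to the enzymes and complexes that place them on DNA. CAF-1 deposits the replication-coupled histone H3 forms behind the replication fork, the HIRA complex deposits the variant H3.3 independently of replication, and DAXX with ATRX deposits H3.3 at repeats, telomeres and pericentromeric chromatin, while ASF1 and NASP supply H3-H4 dimers upstream of these routes. In the mouse zygote HIRA is known for assembling nucleosomes in the male pronucleus, and in embryonic stem cells loss of CAF-1 is known to raise the share of cells that express MERVL and other transcripts of the 2-cell stage.

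Chaf1a, the large subunit of CAF-1, and Nasp were the members with lower RNA in MERVL-KD embryos at both the 2-cell and the 4-cell stage. Chaf1b, the partner of Chaf1a in CAF-1, did not pass the test at any stage, though it was not tested against Chaf1a. The 250 bases before the RefSeq transcription start of these 3 genes are shown for that reason, 5′ to 3′ on the strand of the gene. They lie at chr17:56040166-56040415 on the plus strand for Chaf1a, chr16:93883651-93883900 on the plus strand for Chaf1b and chr4:116627952-116628201 on the minus strand for Nasp, all in GRCm38.p6, and none of these windows overlaps an annotated exon. Capitals mark the letters of 3 motifs on either strand, the E2F core TTCCCGC, the CCAAT box CCAAT and the cell cycle homology region TTTGAA, which do not overlap one another here.
Chaf1a: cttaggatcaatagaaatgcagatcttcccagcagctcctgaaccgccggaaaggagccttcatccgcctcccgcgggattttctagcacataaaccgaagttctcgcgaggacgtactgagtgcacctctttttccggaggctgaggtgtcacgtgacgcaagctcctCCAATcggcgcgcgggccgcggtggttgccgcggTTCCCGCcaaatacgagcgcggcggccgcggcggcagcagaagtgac
Chaf1b: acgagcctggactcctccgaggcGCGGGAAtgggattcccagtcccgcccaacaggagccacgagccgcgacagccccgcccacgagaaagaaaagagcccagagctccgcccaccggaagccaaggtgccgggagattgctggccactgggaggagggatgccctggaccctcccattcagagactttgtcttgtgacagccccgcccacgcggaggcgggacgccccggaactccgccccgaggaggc
Nasp: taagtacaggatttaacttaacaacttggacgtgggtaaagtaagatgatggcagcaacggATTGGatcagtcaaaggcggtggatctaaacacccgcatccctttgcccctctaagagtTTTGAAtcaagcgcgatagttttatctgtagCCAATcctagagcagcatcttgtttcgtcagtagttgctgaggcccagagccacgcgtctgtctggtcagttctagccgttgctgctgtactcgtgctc
The Chaf1a window held 1 E2F core starting 47 bases before the start site and 1 CCAAT box at 81 bases, and the Chaf1b window held 1 E2F core at 227 bases and no CCAAT box. The Nasp window held CCAAT boxes at 189 and 99 bases, a TTTGAA at 130 bases and no E2F core. Over the 10 members (all matched by symbol), 2 windows held the E2F core, 8 the CCAAT box and 2, those of Asf1b and Nasp, the TTTGAA letters. Among the windows of all 27025 genes in the RefSeq table these shares were 3.84%, 34.5% and 16.3%. The motifs were chosen with the sequences in view, so these counts are a description of letters only.

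The injected oligonucleotides had no site with up to 2 mismatches in the gene body of any member, and 1 site with 4 mismatches lay in Atrx. The knockdown itself was visible in every library. Reads of the MERVL internal region (MERVL-int), scaled within the 2-cell stage to CPM (each count as a share of the normalised library total), stood at 68587 and 74067 in the control libraries and at 1412 and 1297 in the MERVL-KD libraries, a 52.7-fold lower level (log2 fold change −5.72 ± 0.08, SE, adjusted p = 1.28e-16). At the 4-cell and 8-cell stages the log2 fold changes were −5.53 ± 0.25 (adjusted p = 0.000104) and −5.40 ± 0.08 (adjusted p = 2.42e-12). Here and below, tests used edgeR's quasi-likelihood fit with Benjamini-Hochberg adjustment over all genes and repeat families tested, n = 2 libraries per group, and a gene is said to have risen or fallen at an adjusted p under 0.05. Where libraries of control and MERVL-KD are said to overlap or not, this describes the values only and is not marked for every gene. With 2 libraries per group such a separation arises often without any effect, and its share over all features was not computed. Library totals ranged from 28167085 to 41482526 counts. Members held between 244 counts (Hira) and 30572 counts (Atrx) per library, and all 10 passed the filter on low counts in every comparison. Marker sums, here and below, are CPM scaled over all 12 libraries, unlike the CPM of single genes. The 7 markers of the 2-cell stage summed to 654 and 731 CPM in the control 2-cell libraries and to 12 and 13.1 CPM at the 8-cell stage, and 9 markers of the 8-cell stage and later went from 297 and 334 CPM to 1196 and 1239 CPM. The 8 markers of cumulus and granulosa cells summed to between 19.7 and 27.2 CPM over all libraries, with Ptx3 at 0 counts in both libraries of 5 of the 6 groups, and the 6 sperm markers to at most 2.04 CPM. The 4 blood and immune markers summed to at most 8.52 CPM and are given by arm beside the results.

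Some members share bases with other genes, which limits how exactly their reads could be assigned. Of the exon bases of Hira (chr16:18877037-18970309, plus strand), 44.7% lie in Gm28539 on the same strand, and that gene is listed at 0 in all 12 libraries. Exons of Mcm9 cover 48.0% of the exon bases of Asf1a (chr10:53596757-53609225, plus) on the opposite strand, and exons of Ubxn6 cover 52.5% of those of Chaf1a (chr17:56040439-56072289, plus) on the opposite strand. Whether the counting used strand, and what was done with reads in shared bases, is not given in the sources used here. Ubxn6 stayed between 0.314 and 1.30 RPKM (the scaled count divided by the deposited exon length), against 5.73 to 13.7 for Chaf1a, whereas Mcm9 ranged from 0.586 to 8.03 RPKM, against 4.35 to 8.54 for Asf1a. The part of these overlaps in the results below was not tested. The Nasp transcript (chr4:116601052-116627941, minus) matched transcripts of 92 other genes over at least 150 bases at 95% identity or more, with a longest match of 207 bases at 95.7%, and only uniquely aligned reads had been kept. Chaf1b (chr16:93883901-93906115, plus), Asf1b (chr8:83955507-83970197, plus), Ubn1 (chr16:5050057-5086289, plus), Cabin1 (chr10:75646112-75764341, minus), Daxx (chr17:33909414-33915590, plus) and Atrx (chrX:105797615-105929403, minus) shared no exon bases with another gene and had no such copy.

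Levels per transcript length spanned a wide range among the members. In control 2-cell embryos Nasp was the highest at 50.3 and 58.1 RPKM, followed by Atrx (34.7 and 38.6), Ubn1 (34.4 and 38.4), Cabin1 (27.9 and 30.2), Asf1b (26.7 and 26.8), Chaf1a (12.8 and 13.7), Daxx (13.0 and 12.8), Asf1a (8.38 and 8.54), Chaf1b (2.73 and 2.60) and Hira (1.30 and 1.39). Neighbours in this order did not overlap between their libraries, except Atrx with Ubn1 and Chaf1a with Daxx. By the 8-cell stage the control order was Nasp (101 and 95.6), Atrx (26.9 and 28.5), Ubn1 (18.1 and 18.2), Cabin1 (9.71 and 9.92), Chaf1a (7.27 and 8.32), Daxx (6.47 and 7.52), Asf1b (6.02 and 5.81), Chaf1b (5.68 and 6.03), Asf1a (5.58 and 5.47) and Hira (2.50 and 2.21), where Chaf1a overlapped with Daxx and Asf1b with Chaf1b. The low RPKM of Hira is computed over its whole exon length, including the 44.7% that it shares with Gm28539. Likewise the RPKM of Chaf1a and Asf1a covers the bases shared with Ubxn6 and Mcm9.

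**Figure D1:**
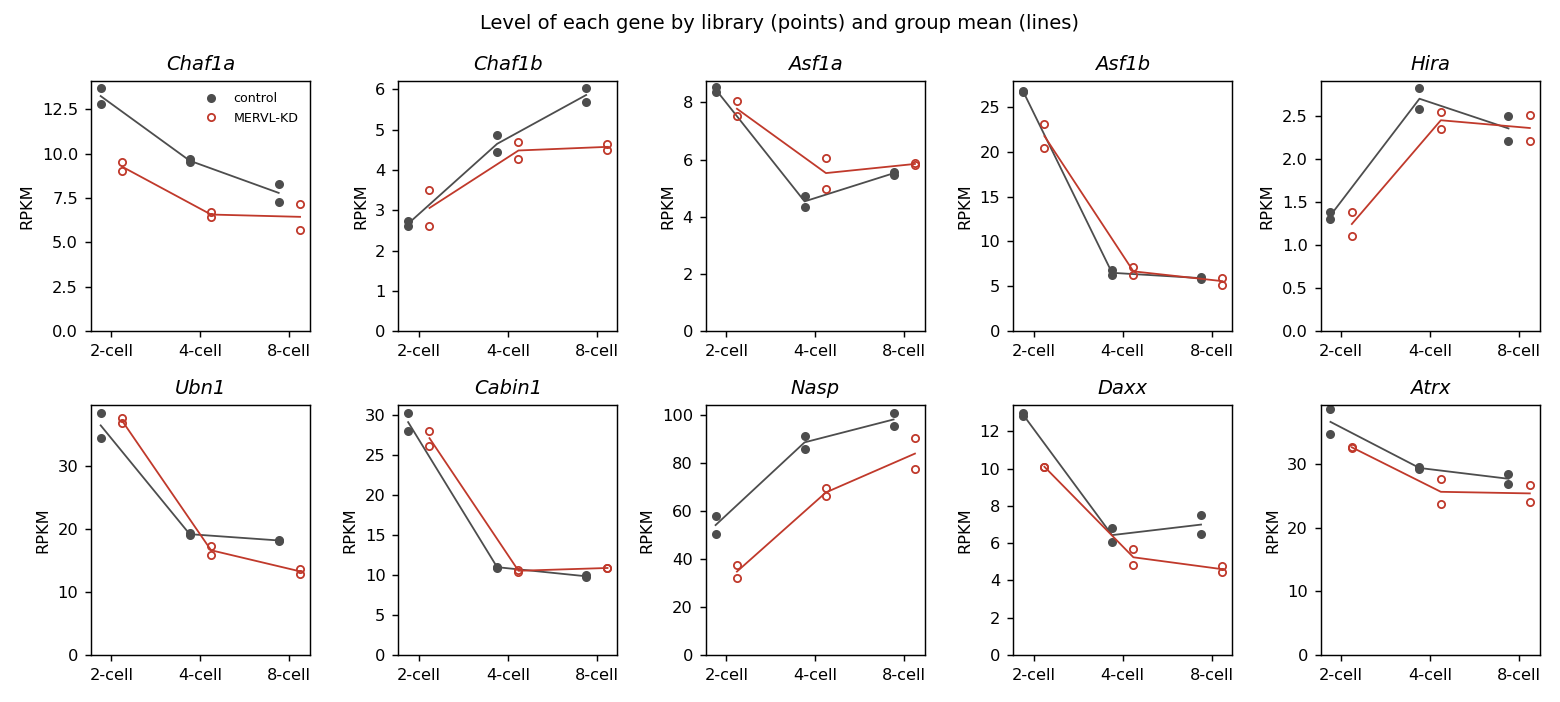
RPKM of each of the 10 genes (y axis, from 0) at each of the 3 stages (x axis) in control (filled points) and MERVL-KD (open points) libraries, with lines joining the group means of 2 libraries. Asf1b drops from 26.7 and 26.8 to 6.77 and 6.25 RPKM between the control 2-cell and 4-cell stages, while Nasp climbs. The MERVL-KD points of Chaf1a and Nasp lie under the control points at all 3 stages.

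The first comparison asked how the members moved over the cleavage divisions in control embryos. From the 2-cell to the 4-cell stage all 10 members changed, 3 upwards and 7 downwards, at a time when 30.3% of all 21950 features tested rose and 31.1% fell, so that most features changed in either direction. The median log2 fold change was −0.66 over the members and 0.002 over all features tested. From the 4-cell to the 8-cell stage, with 8.78% of features called in either direction, 0 of the 10 members passed in edgeR (2 had an unadjusted p under 0.05), and 0 passed with DESeq2. In these bulk libraries fewer cells of a type and less RNA per cell cannot be told apart, and every level is relative to all RNA of the library. Scaling by library size alone moved the median of all genes at the second step from 0.000 to −0.210, with 382 features higher and 2308 lower in place of 1047 and 881, and then 4 members passed as lower.

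Among the H3-H4 suppliers the paralogs of ASF1, which hands H3-H4 dimers to both CAF-1 and HIRA, fell to different extents. Asf1b, the paralog known for its link to proliferation, stood at 26.7 and 26.8 RPKM in the control 2-cell libraries and at 6.77 and 6.25 at the 4-cell stage, a 4.04-fold fall (log2 fold change −2.01 ± 0.13, adjusted p = 1.14e-08). Asf1a went from 8.38 and 8.54 to 4.35 and 4.73 RPKM, a 1.83-fold fall (−0.88 ± 0.14, adjusted p = 9.95e-05). The ratio of Asf1b to Asf1a per length therefore went from 3.18 and 3.14 at the 2-cell stage to 1.56 and 1.32 at the 4-cell stage and 1.08 and 1.06 at the 8-cell stage, with no overlap between stages. Since Mcm9 lies opposite to Asf1a, this ratio carries the uncertainty named above. Nasp, which keeps a soluble pool of H3-H4, moved the other way. Its level rose from 50.3 and 58.1 to 91.4 and 86.1 RPKM, 1.67-fold (log2 fold change 0.74 ± 0.08, adjusted p = 3.52e-06), and was 101 and 95.6 RPKM at the 8-cell stage (0.15 ± 0.08, adjusted p = 0.306).

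The subunits of CAF-1 moved in opposite directions. Chaf1a, which encodes the large subunit p150, fell from 12.8 and 13.7 RPKM to 9.71 and 9.51 (log2 fold change −0.44 ± 0.10, adjusted p = 0.00185) and Chaf1b, which encodes the p60 subunit, rose from 2.73 and 2.60 to 4.43 and 4.86 RPKM (0.82 ± 0.15, adjusted p = 0.000297). Their ratio was 4.71 and 5.26 in the control 2-cell libraries, 2.19 and 1.96 at the 4-cell stage and 1.28 and 1.38 at the 8-cell stage, so the 3 stages did not overlap. Since Ubxn6 lies opposite to Chaf1a, the size of this ratio also carries the uncertainty of shared bases. Rbbp4, which encodes the smallest subunit and also serves other chromatin complexes, rose at both steps, from 11.1 and 12.1 to 17.0 and 17.6 and then to 22.9 and 21.0 RPKM (log2 fold changes 0.60 ± 0.09, adjusted p = 3.68e-05, and 0.35 ± 0.09, adjusted p = 0.0253).

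Within the HIRA complex the namesake rose while its partners fell. Hira, the subunit that holds the complex together, went from 1.30 and 1.39 to 2.58 and 2.82 RPKM, 2.03-fold (log2 fold change 1.02 ± 0.18, adjusted p = 0.000191). Ubn1, which binds H3.3, fell from 34.4 and 38.4 to 19.0 and 19.3 RPKM (−0.90 ± 0.08, adjusted p = 4.3e-07), and Cabin1, a scaffold subunit that also binds calcineurin, fell 2.61-fold from 27.9 and 30.2 to 10.9 and 11 RPKM (−1.38 ± 0.08, adjusted p = 4.35e-09). Ubn2, a paralog of Ubn1, went from 12.6 and 13.6 to 10.6 and 10.7 RPKM (−0.28 ± 0.08, adjusted p = 0.0104), and the ratio of Ubn1 to Ubn2 per length was 2.74 and 2.82 at the 2-cell stage and 1.79 and 1.81 at the 4-cell stage. Of the genes for H3.3 itself, H3f3a rose from 44.3 and 50.8 to 103 and 104 RPKM (1.15 ± 0.08, adjusted p = 2.86e-08), and H3f3b held 179 and 183 against 154 and 179 RPKM (−0.10 ± 0.08, adjusted p = 0.321).

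Daxx, the histone-binding protein of the DAXX-ATRX pair, fell 1.97-fold from 13.0 and 12.8 to 6.79 and 6.07 RPKM (log2 fold change −0.98 ± 0.15, adjusted p = 4.3e-05). Atrx, the chromatin remodeller of the pair, fell by less, from 34.7 and 38.6 to 29.6 and 29.2 RPKM (−0.29 ± 0.08, adjusted p = 0.00528). Without the second control 2-cell library the change of Atrx was −0.19 with an adjusted p of 0.0744, and under library-size scaling it was −0.15 with an adjusted p of 0.102. The ratio of Atrx to Daxx went from 2.67 and 3.03 to 4.36 and 4.82.

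MERVL-KD embryos went through the same step in their own 6 libraries. From the 2-cell to the 4-cell stage all 10 members again changed, 3 upwards (Chaf1b, Hira and Nasp) and 7 downwards, where 28.6% of 23263 features rose and 27.7% fell. The log2 fold changes ran from −1.69 ± 0.17 for Asf1b (20.4 and 23.1 to 7.11 and 6.23 RPKM, adjusted p = 1.8e-06) to 0.99 ± 0.20 for Hira (1.38 and 1.11 to 2.55 and 2.35 RPKM, adjusted p = 0.00111). The smaller changes were less secure, since some calls were lost with 1 MERVL-KD library left out. Chaf1b lost its call without the second 2-cell (adjusted p = 0.218) or second 4-cell library (0.0867), Asf1a without either 2-cell library (0.112 and 0.0533) or the first 4-cell library (0.166), and Atrx without the second 4-cell library (0.149). Chaf1b also lost its call under library-size scaling (0.41, adjusted p = 0.0886) and with at least 10 counts in every library (adjusted p = 0.0501). From the 4-cell to the 8-cell stage, where 2.63% of features were called in either direction, 0 of the 10 members passed in edgeR or in DESeq2, and 2 had an unadjusted p under 0.05. These included Ubn1, at 17.3 and 15.9 and then 12.9 and 13.6 RPKM (−0.33 ± 0.10, adjusted p = 0.11). Under library-size scaling Ubn1 passed, and the split of all features went from 232 higher and 380 lower to 101 and 675.

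**Figure D2:**
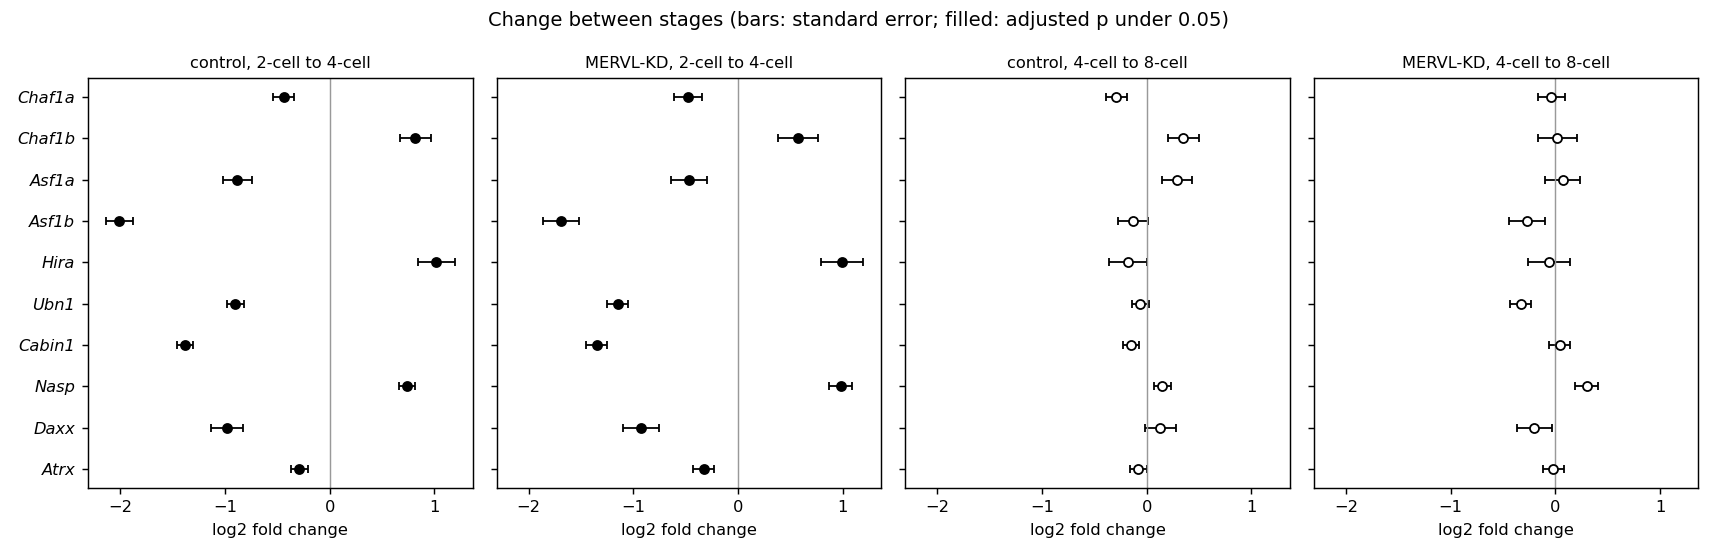
Log2 fold change (x axis) from each stage to the next for the 10 genes, in control and in MERVL-KD embryos, with standard errors as bars and filled points for an adjusted p under 0.05. All 10 points are filled for the 2-cell to 4-cell step in both arms, with Asf1b the lowest at −2.01 and −1.69, and none is filled for the 4-cell to 8-cell step.

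**Figure D3:**
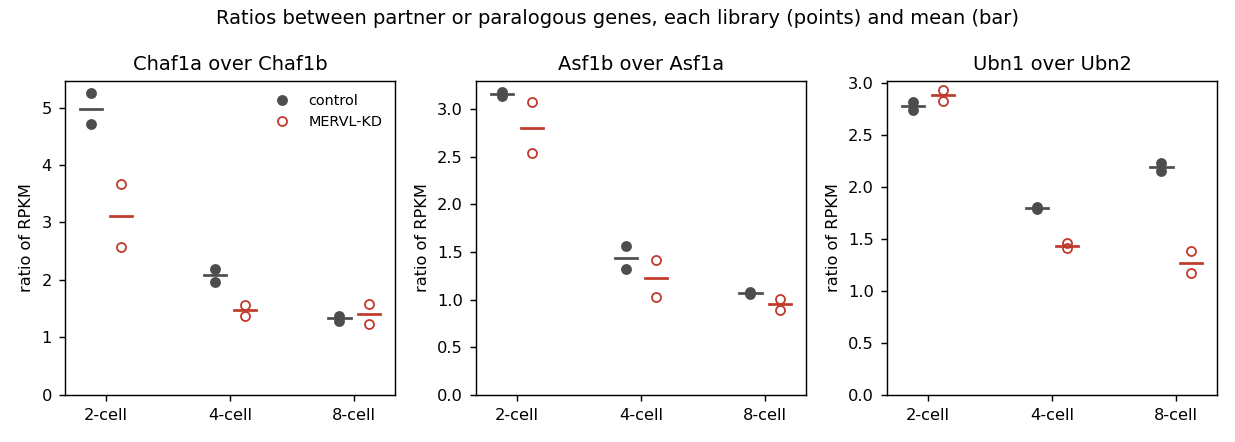
Ratios of RPKM (y axis, from 0) of Chaf1a to Chaf1b, of Asf1b to Asf1a and of Ubn1 to Ubn2 at each stage (x axis), each point a library and each bar the mean of 2, filled for control and open for MERVL-KD. In control embryos the first ratio falls from 4.71 and 5.26 to 1.28 and 1.38 and the second from 3.18 and 3.14 to 1.08 and 1.06, and in 8-cell embryos the third is 2.23 and 2.15 without and 1.17 and 1.38 with MERVL-KD.

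The second comparison asked what MERVL-KD did to the members at each stage. In 2-cell embryos Nasp and Chaf1a were lower, by 1.47-fold and 1.35-fold, and 0 members were higher, where 7.23% of the 21347 features tested fell and 6.74% rose. The median log2 fold change of the members was −0.06, against 0.020 over all features. Nasp stood at 383 and 433 CPM in the control libraries and at 302 and 255 CPM in the MERVL-KD libraries, with no overlap (log2 fold change −0.55 ± 0.10, adjusted p = 0.00108). Chaf1a stood at 115 and 120 against 85.2 and 89.2 CPM, again with no overlap (−0.43 ± 0.09, adjusted p = 0.00484). In the same libraries Chaf1b was at 13.0 and 12.1 CPM against 17.5 and 12.8 CPM in MERVL-KD (0.28 ± 0.19, adjusted p = 0.364), so the Chaf1a to Chaf1b ratio of 4.71 and 5.26 compares with 2.57 and 3.67.

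The other 8 members had log2 fold changes from −0.27 to 0.28 in 2-cell embryos, with adjusted p-values of at least 0.161. Daxx was at 41.6 and 39.9 CPM in control libraries and, under MERVL-KD, 33.9 and 33.7 CPM (−0.27 ± 0.12, adjusted p = 0.161). Ubn1 (288 and 315 against 324 and 329 CPM), Cabin1 (344 and 364 against 338 and 360 CPM) and Atrx (766 and 833 against 759 and 750 CPM) had log2 fold changes of 0.11, −0.02 and −0.08. Asf1b read 63.3 and 62.2 against 50.9 and 57 CPM (−0.22 ± 0.11, adjusted p = 0.213). Asf1a (30.9 and 30.8 against 31.2 and 28.9 CPM) and Hira (8.21 and 8.59 against 9.15 and 7.29 CPM) overlapped between the groups. Other measures moved along with these results. The summed level of 9 oocyte and early embryo markers was 2024 and 2059 CPM in the control and 1290 and 1412 CPM in the MERVL-KD 2-cell libraries, 4 of the 9 fell and none was at 0 counts. The 7 markers of the 2-cell stage summed to 654 and 731 against 361 and 466 CPM, with 4 of the 7 lower and a median log2 fold change of −0.64, and none was at 0 counts. The 4 blood and immune markers summed to 2.72 and 2.74 CPM in control and to between 4.58 and 6.41 CPM in MERVL-KD, with 0 passing in edgeR (2 at an unadjusted p under 0.05) and Hbb-bs at 0 in both groups, and 1 of the 8 cumulus and granulosa markers (4 tested) and 1 of the 9 markers of the 8-cell stage and later rose. The part of these markers in the lower Nasp and Chaf1a was not tested. Scaling by library size alone moved the median of all genes from 0.014 to 0.301, with 4552 features higher and 703 lower in place of 1438 and 1544. Under that scaling Nasp changed by −0.26 (adjusted p = 0.0499) and Chaf1a by −0.14 (adjusted p = 0.276), both below that median.

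In 4-cell embryos the same 2 genes, Chaf1a and Nasp, were lower, 0 members were higher, and 5.75% of 20505 features fell and 4.83% rose. The members' median log2 fold change was −0.16, against 0.014 over all features. Chaf1a read 89.8 and 87.6 CPM in control libraries and, under MERVL-KD, 62.4 and 59.4 CPM, 1.46-fold lower (−0.54 ± 0.11, adjusted p = 0.00791), and stayed past the threshold with each library left out in turn. Nasp read 717 and 674 against 548 and 520 CPM, 1.30-fold lower (−0.38 ± 0.09, adjusted p = 0.0151), and without the first control 4-cell library its adjusted p was 0.125. The level of Chaf1b was 21.6 and 23.6 against 21.0 and 22.9 CPM, groups that overlap (−0.05 ± 0.16, adjusted p = 0.91). The 8 members that did not pass had log2 fold changes from −0.29 to 0.29 and adjusted p-values of at least 0.216. Asf1a was the highest of these, at 16.5 and 17.9 CPM in control libraries and, under MERVL-KD, 19.0 and 23.1 CPM (0.29 ± 0.17, adjusted p = 0.334). Mcm9, on the strand opposite to Asf1a, stood at 2.92 and 2.37 RPKM in control libraries and, under MERVL-KD, 0.945 and 0.586 RPKM. Asf1b (16.5 and 15.2 against 17.4 and 15.2 CPM) overlapped between the groups. Among the HIRA subunits, Ubn1 read 164 and 166 against 150 and 137 CPM (−0.20 ± 0.10, adjusted p = 0.216). Cabin1 read 138 and 139 against 135 and 132 CPM, and Hira 16.7 and 18.2 against 16.6 and 15.3 CPM. Daxx stood at 22.4 and 19.9 against 18.7 and 15.8 CPM (−0.29 ± 0.17, adjusted p = 0.331). Atrx stood at 672 and 662 against 629 and 537 CPM (−0.19 ± 0.09, adjusted p = 0.23), and without the first MERVL-KD library its change was −0.32 with an adjusted p of 0.0326. The 9 oocyte and early embryo markers summed to 1234 and 1335 CPM in control and to 990 and 1082 CPM in MERVL-KD, where 1 of the 9 fell, 5 of the 9 had a positive log2 fold change and the median was 0.23. Of the 9 markers of the 8-cell stage and later 2 rose, at sums of 841 and 866 CPM in control and 855 and 922 CPM in MERVL-KD. Of the 7 markers of the 2-cell stage 1 fell, but 5 had a positive log2 fold change and the median was 0.23. The 4 blood and immune markers summed to between 1.19 and 2.36 CPM in control and 4.01 and 8.52 CPM in MERVL-KD, and 1 of them rose. The part of these markers in the 4-cell values was not tested.

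In 8-cell embryos Ubn1 was the member that fell, where 3.51% of 19153 features fell and 1.62% rose, and 0 members rose. The members' median was −0.17, against 0.015 over all features. Ubn1 stood at 139 and 139 CPM in the control libraries and at 99.7 and 105 CPM in the MERVL-KD libraries, 1.36-fold lower (log2 fold change −0.44 ± 0.09, adjusted p = 0.017). With the first or the second control library left out its change was −0.44 both times, but the adjusted p was 0.0747 and 0.0678. Daxx had the largest difference of any member at this stage, 18.9 and 21.9 against 14.0 and 13.0 CPM (−0.60 ± 0.17), but its adjusted p of 0.0628 missed the threshold in edgeR. It passed in 4 of 9 alternatives of processing, DESeq2 among them (adjusted p = 0.0406), and the adjusted p reached 0.16 in the others. With a library left out in turn its change ran from −0.70 to −0.48. Chaf1a was at 59.7 and 67.9 against 59.1 and 47.1 CPM (−0.27 ± 0.13, adjusted p = 0.299) and Nasp at 702 and 663 against 544 and 633 CPM (−0.21 ± 0.09, adjusted p = 0.198). Neither passed, although each stood lower in both MERVL-KD libraries than in both control libraries. With a library left out in turn the change ran from −0.44 to −0.11 for Chaf1a and from −0.33 to −0.11 for Nasp. Chaf1b read 24.7 and 26.0 against 19.7 and 20.2 CPM (−0.35 ± 0.14, adjusted p = 0.207). Cabin1 read 110 and 111 against 124 and 122 CPM, higher in both MERVL-KD libraries without passing (0.16 ± 0.09, adjusted p = 0.385). The remaining members had log2 fold changes from −0.12 for Atrx (544 and 571 against 488 and 540 CPM) to 0.09 for Asf1a (18.8 and 18.4 against 20.0 and 19.6 CPM), with Asf1b at 13.1 and 12.5 against 13.0 and 11.3 CPM and Hira at 14.4 and 12.7 against 14.6 and 12.8 CPM. The 9 markers of the 8-cell stage and later summed to 1196 and 1239 CPM in control and to 959 and 1043 CPM in MERVL-KD, with 2 of the 9 lower, and the 9 oocyte and early embryo markers to 1542 and 1602 against 1232 and 1351 CPM, with 1 of the 9 lower, and their part in these values was not tested. Under library-size scaling the median of all genes was 0.133 and not 0.006, 623 features rose and 375 fell in place of 311 and 672, and Ubn1 changed by −0.32 (adjusted p = 0.071).

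Ubn2, the paralog of Ubn1, had its difference in the other direction. In 8-cell embryos it was at 161 and 168 CPM in control libraries and, under MERVL-KD, 220 and 197 CPM, a log2 fold change of 0.34 ± 0.09 with an adjusted p of 0.0506. The adjusted p was 0.0272 with DESeq2 and up to 0.0529 over the 9 alternatives of processing. With a library left out in turn the change of Ubn2 ran from 0.26 to 0.42. Per length, the ratio of Ubn1 to Ubn2 in 8-cell embryos was 2.23 and 2.15 in control libraries and, under MERVL-KD, 1.17 and 1.38, while in 2-cell embryos it was 2.74 and 2.82 against 2.83 and 2.93. In 8-cell embryos the ratio of Cabin1 to Ubn1 was 0.536 and 0.545 in control libraries and, under MERVL-KD, 0.845 and 0.794. These ratios are given as values, with no test.

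**Figure D4:**
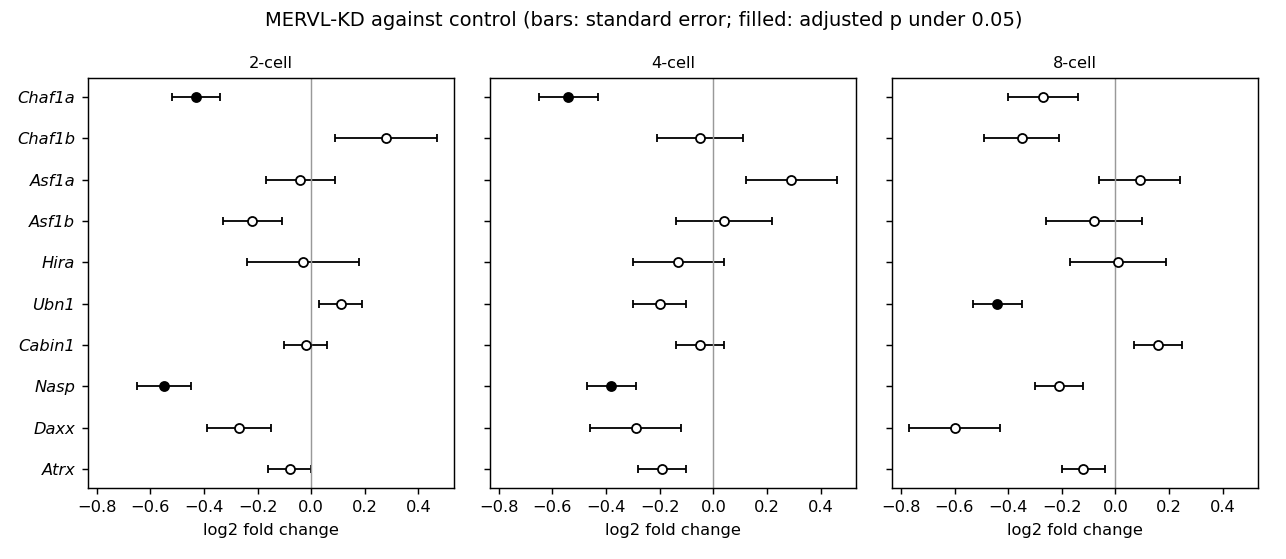
Log2 fold change (x axis) of MERVL-KD against control for each of the 10 genes at each of the 3 stages, with standard errors as bars and filled points for an adjusted p under 0.05. Filled points are Chaf1a (−0.43) and Nasp (−0.55) in 2-cell embryos, Chaf1a (−0.54) and Nasp (−0.38) in 4-cell embryos and Ubn1 (−0.44) in 8-cell embryos.

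Whether the effect of MERVL-KD on a member differed between stages was tested in 1 fit of all 12 libraries. For the 4-cell against the 2-cell stage 0 of the 10 members passed (4.12% of 24850 features did, in either direction), with 0 at an unadjusted p under 0.05 and 0 with DESeq2. For the 8-cell against the 4-cell stage 0 members passed as well (0.636% of features), again with 0 at an unadjusted p under 0.05 and 0 with DESeq2. For the 8-cell against the 2-cell stage 1 member, Ubn1, passed (3.98% of features), with an effect more negative at the 8-cell stage by 0.48 ± 0.13 on the log2 scale (adjusted p = 0.0442). That call was lost with 8 of the 12 libraries left out in turn, at adjusted p-values up to 0.226 (without the first control 2-cell library), and held without the second control 2-cell library, either MERVL-KD 4-cell library or the second MERVL-KD 8-cell library. The lower Chaf1a at the 2-cell and 4-cell stages and its uncalled difference at the 8-cell stage were not shown to differ from each other (8-cell against 4-cell 0.27 ± 0.17, adjusted p = 0.555). For Nasp the effect was less negative by 0.42 ± 0.15 at the 8-cell than at the 2-cell stage, with an adjusted p of 0.126. Library-size scaling moved the splits of all features for the first and the last of these contrasts from 614 higher and 411 lower to 231 and 1382 and from 583 and 406 to 278 and 960, and Ubn1 then passed in both.

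The wider machinery of histone handling was followed through a list of 30 other genes, chosen with earlier results of these data known. Counts over this list, set beside the share of all features, are therefore a description, and no excess was tested. In 2-cell embryos 10 of the 30 fell and 0 rose under MERVL-KD (median log2 fold change −0.16, against 0.020 over all features and with 7.23% of features lower). These were the CAF-1 subunit Rbbp4, its paralog Rbbp7 and the H2A-H2B chaperone Nap1l1 (−0.30 ± 0.08, adjusted p = 0.0175). The Nap1l1 call was lost without the second control library. Also lower were 2 of the 3 genes for centromeric loading, the fork helicase subunit Mcm2, which also binds histones, and all 4 histone genes of the list. Rbbp4 went from 98.1 and 105 CPM in control to 54.7 and 70.4 CPM in MERVL-KD (−0.70 ± 0.12, adjusted p = 0.000865). Of the CAF-1 genes Rbbp4 and Chaf1a were thus lower and Chaf1b did not pass, but they were not tested against each other. Oip5, a subunit of the complex that primes centromeres, changed by −0.86 ± 0.17, Hjurp, the chaperone of the centromeric H3 variant, by −0.71 ± 0.10, and its cargo Cenpa by −0.62 ± 0.09. The H3.3 genes H3f3a (157 and 176 against 137 and 137 CPM) and H3f3b (541 and 539 against 409 and 450 CPM) fell by 0.29 ± 0.09 and by 0.33 ± 0.08 (adjusted p = 0.0477 and 0.011). The call of H3f3a was lost without the second control library (adjusted p = 0.324) or either MERVL-KD library (0.0844 and 0.0629), and under library-size scaling H3f3a, H3f3b and Nap1l1 changed by 0.00, −0.04 and −0.01. Of FACT and Spt6, and of the regulators and importers of ASF1, 0 of 3 and 0 of 5 genes passed in edgeR, with 0 and 1 at an unadjusted p under 0.05.

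In 4-cell embryos 3 of the 30 fell and 2 rose (5.75% and 4.83% of features, median −0.07). Mcm2 stood at 180 and 173 CPM in control libraries and, under MERVL-KD, 107 and 111 CPM (−0.69 ± 0.09, adjusted p = 0.000792). Tlk2, a kinase that phosphorylates ASF1, fell from 140 and 130 to 80.5 and 84.9 CPM (−0.70 ± 0.10, adjusted p = 0.00102). Hat1, which acetylates newly made H4, was at 64.3 and 53.5 CPM in control libraries and, under MERVL-KD, 99.5 and 95.9 CPM (0.73 ± 0.12, adjusted p = 0.00264), and Dnajc9, a heat shock co-chaperone that binds H3-H4, at 31.3 and 34.7 against 56.8 and 56.2 CPM (0.77 ± 0.13). Supt6, the elongation factor and histone chaperone Spt6, fell from 445 and 448 to 360 and 333 CPM (−0.37 ± 0.09), a call that was lost with either control library left out (adjusted p = 0.0973 and 0.11). H3f3b, at 479 and 554 against 400 and 460 CPM, did not pass (−0.26 ± 0.10, adjusted p = 0.131) except without the second MERVL-KD library (adjusted p = 0.0203).

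In 8-cell embryos 3 of the 30 fell and 1 rose (3.51% and 1.62% of features, median −0.08). Mcm2 was lower for the third time, at 169 and 174 against 125 and 121 CPM (−0.48 ± 0.09, adjusted p = 0.0089), H3f3a was at 473 and 465 against 354 and 374 CPM (−0.36 ± 0.08, adjusted p = 0.0201) and Rbbp4 at 185 and 170 against 138 and 142 CPM (−0.34 ± 0.09, adjusted p = 0.0494). Hat1 was higher, at 59.8 and 64.2 against 82.1 and 85.4 CPM (0.43 ± 0.10, adjusted p = 0.0339). Under library-size scaling H3f3a (adjusted p = 0.0913) and Rbbp4 (adjusted p = 0.197) lost their calls. Rbbp4 also lost its call with repeat families left out (adjusted p = 0.0567) and in 1 fit of all 12 libraries (adjusted p = 0.0897). The Mcm2 call held with each library left out, but those of H3f3a, Rbbp4 and Hat1 were lost with either control library left out, at adjusted p-values up to 0.334.

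**Figure D5:**
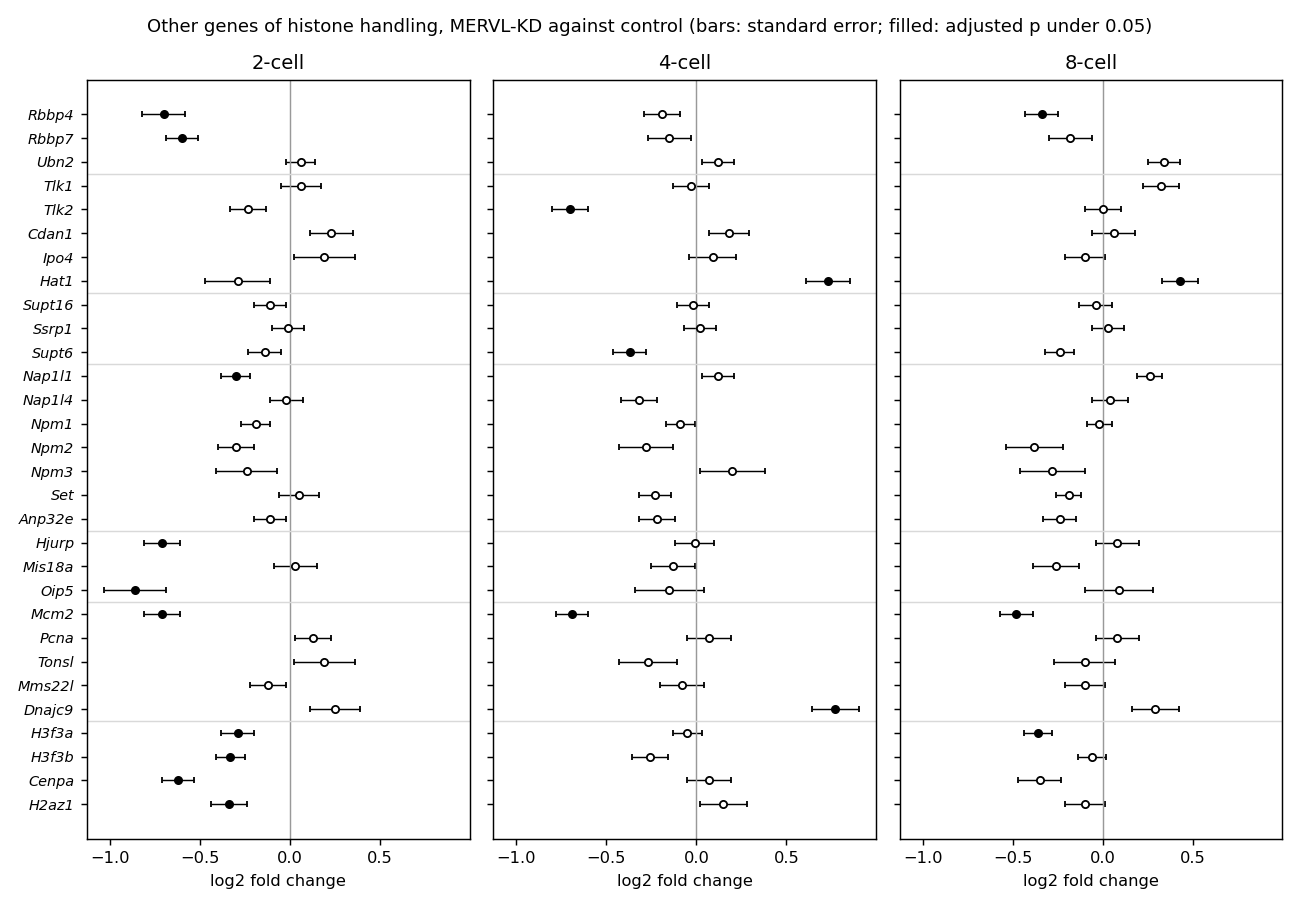
Log2 fold change (x axis) of MERVL-KD against control for the 30 other genes of histone handling at each stage, with standard errors as bars, filled points for an adjusted p under 0.05 and grey lines between functional groups. Filled points number 10 in 2-cell, 5 in 4-cell and 4 in 8-cell embryos, and Mcm2 is filled on the negative side at all 3 stages.

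For each member the gene with the most similar course over the 12 libraries was sought among 7588 genes with a mean of at least 10 CPM, as the Pearson r of log2 CPM. The closest were Zbtb18 for Cabin1 (r = 0.998), Pla2g4c for Asf1b (0.997), Dennd4c for Ubn1 (0.994), Larp1b for Nasp (0.990), Med23 for Hira (0.989), Zfp930 for Daxx (0.987), Tiprl for Chaf1a (0.979), Nol11 for Chaf1b (0.979), Ptbp3 for Asf1a (0.977) and Taf11 for Atrx (0.969). All libraries of a stage share much of their course, and the number of genes with r above 0.95 ran from 12 for Chaf1a to 1560 for Asf1b, so several members had many genes of similar course.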

How the data were processed

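RNA was measured in 12 libraries of embryos that had received scrambled or MERVL antisense oligonucleotides; the ATAC-seq libraries of the series were not used here. According to the submitters' processing notes and the study's methods, the authors aligned reads of a stranded, rRNA-depleted total RNA kit to GRCm38 with STAR 2.5.3a, discarded multiple alignments and used featureCounts to count reads per GENCODE gene and per RepeatMasker family, so the deposited values were raw counts per gene or repeat family and library beside a length column. The strand setting of the counting is not given in the sources used here. Between 71.8% and 74.7% of genes with 1 to 50 counts had an even count, so mates were mostly counted separately and counts are not independent molecules.

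Counts were tested with edgeR 4.0.16 in R 4.3.3 (filterByExpr, TMM, robust quasi-likelihood fit) on the whole table, with Benjamini-Hochberg adjustment and a threshold of 0.05, within each stage for MERVL-KD against control (4 libraries), within each arm between stages (6 libraries) and over all 12 libraries for differences of effects. CPM of single genes and of MERVL-int within a stage used that stage's TMM factors. Summed marker CPM and the log2 CPM of the search for similar courses used TMM over all 12 libraries. RPKM used TMM over all 12 libraries and the deposited length. Replicates are pools that the study calls biological, and p-values measure the spread between these samples only. Their counts differed by more than sampling noise (chi-square per degree of freedom 14.7 to 25.8). Between same-numbered libraries the correlation of deviations from group means was −0.0083 to 0.0235, so the numbers were not taken as pairs. Alternatives were DESeq2 1.42.0, its size factors in edgeR, library size alone, no filter, at least 10 counts in every library, repeat families left out, halved counts, a replicate block, all 12 libraries in 1 fit, the study's addition of a 2-fold change, and each library left out. Promoters came from RefSeq tables and transcript copies from BLAST 2.17.0.

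The 10 genes, the 30 other genes and the marker lists were chosen with earlier results of these data known. Named were all 10 members, H3f3a, H3f3b, Rbbp4 and Ubn2, up to 6 others of the 30 with the smallest adjusted p among those passing at each MERVL-KD comparison, MERVL-int as the target, and 1 gene of most similar course per member. A further gene of the list as first drawn up is not reported here. The lists' genes were matched by symbol, 1 through an older symbol (H2afz).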

Additional observations from a re-analysis of the deposited data

Results flagged for a closer look

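Ubn1 was the member whose response to MERVL-KD differed between stages by a test of the difference itself, with an effect −0.48 ± 0.13 (log2, SE) lower at the 8-cell than at the 2-cell stage (adjusted p = 0.0442). Among the other genes of histone handling the effect of MERVL-KD at the 4-cell stage was above that at the 2-cell stage by 0.59 for Rbbp4 (adjusted p = 0.0428), 0.78 for Hjurp (adjusted p = 0.0165), 0.77 for Cenpa (adjusted p = 0.00615) and 1.10 for Hat1 (adjusted p = 0.00095). At the 8-cell against the 2-cell stage the difference was 0.87 for Hjurp (adjusted p = 0.00733), 1.02 for Oip5 (adjusted p = 0.0387) and 0.80 for Hat1 (adjusted p = 0.0111). Nap1l1 differed by 0.50 (adjusted p = 0.0208) and 0.63 (adjusted p = 0.00401) in the same contrasts. The differences of Oip5 at the 4-cell against the 2-cell stage (0.79, adjusted p = 0.122) and of Cenpa at the 8-cell against the 2-cell stage (0.34, adjusted p = 0.266) did not pass. For Tlk2 the effect at the 8-cell stage was above that at the 4-cell stage by 0.70 (adjusted p = 0.0394). Apart from Rbbp4, these other genes were named because they passed at a stage in the same libraries. Their differences between stages may be overstated by that choice, and they were not examined with a library left out. The Ubn1 difference ran from −0.62 to −0.39 with a library left out in turn, and its call did not always hold. With 2 libraries in a group, no library could be tested for standing apart within its group.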

How the results depend on the processing

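The 2 members that passed at the 2-cell stage were 4 under library size alone (Nasp lower, and Cabin1 at 0.27, adjusted p = 0.0234, Chaf1b and Ubn1 higher), a scaling under which H3f3a went to 0.00. Library size alone also gave 0 members for MERVL-KD at the 8-cell stage, 4 for the control and 1 for the MERVL-KD 4-cell to 8-cell step, 1 for the 4-cell against 2-cell difference, and 9 of 10 for the 2-cell to 4-cell step in either arm (Atrx lost in control, Chaf1b in MERVL-KD). A 2-fold change as a further condition left 0 members at each stage and for each difference of effects. For the 2-cell to 4-cell step it left 3 of 10 in either arm, not all the same. Asf1b and Cabin1 were left in both arms, Hira in control (1.02, against 0.99 in MERVL-KD) and Ubn1 in MERVL-KD (−1.15, against −0.90 in control). DESeq2, no filter and all 12 libraries in 1 fit each gave 2 members, Daxx and Ubn1, at the 8-cell stage in place of 1. Leaving out single libraries gave 2 members throughout at the 2-cell stage, 1 to 3 at the 4-cell and 0 to 3 at the 8-cell stage, and 0 to 1 for the 8-cell against 2-cell difference, which no filter also brought to 0. With the replicate number as a block the 8-cell stage had 2 members, Daxx (adjusted p = 0.0449) and Ubn1, the 8-cell against 2-cell difference had 0 (Ubn1 adjusted p = 0.0807), and no other member's call changed, while H3f3a at the 2-cell stage lost its call (adjusted p = 0.0834) and Ubn2 at the 8-cell stage gained one (adjusted p = 0.032). Of 720 member values with a library left out, 18 lost and 4 gained a call and 42 uncalled ones changed sign, and of 870 under the other alternatives 7 lost and 12 gained one and 1 reversed. The cause of these changes was not tested. Hira, the member with the lowest count in a library, had standard errors up to 0.27 for a difference of effects.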
